A study of Mus musculus with 12 samples.

Results

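The 28 genes described here encode subunits of the nuclear RNA polymerases I, II and III (Pol I, Pol II and Pol III). They are all the entries of the deposited gene table whose symbol begins with Polr1, Polr2 or Polr3 and a further letter, pseudogenes left out, among 16425 genes listed. By symbol, 5 belong to Polr1, 13 to Polr2 and 10 to Polr3. All 28 passed the filter on low values, a level of 0.5 CPM or more in no fewer than 3 libraries, which kept 14440 genes.

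The RNA came from MEFs, fibroblasts grown from embryos of wild-type mice. The first group carried a guide RNA aimed at the p53 response element of Pvt1, the DNA site in that long noncoding RNA gene to which the transcription factor p53 binds (the Pvt1 guide), and the second carried a non-targeting guide, sgTom (the control guide). Both were grown for 24 h in 0.5 µM doxorubicin, which damages DNA, and each has 3 biological replicates, so that doxorubicin and guide infection are shared by all 6 libraries. The series has 6 further samples of untreated cells, not analysed here. The sources used here do not say whether the infected cells were a mixed population or clones, nor what the guide changed in the DNA.

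Pol I makes the large ribosomal RNA precursor in the nucleolus, Pol II makes messenger RNA and many noncoding RNAs, and Pol III makes transfer RNA, 5S ribosomal RNA and other short RNAs. Each enzyme has its own largest and next-largest subunit, which together form the active site, and its own stalk. Some small subunits are built into all 3 enzymes, and the pair AC40 and AC19 (Polr1c and Polr1d) is built into Pol I and Pol III. The transcription factor Myc is known to raise output of all 3 polymerases, and p53 to restrain Pol I and Pol III. The libraries were made from polyadenylated RNA, so they measure messenger RNA of the subunits and not the main products of Pol I and Pol III.

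The libraries held 50091418 to 66132317 reads in genes. Levels are CPM, reads set against a library size that the authors scaled, and a subunit rested on 198 to 26032 reads in a library. Pvt1 itself stood at 6.46 ± 1.4 CPM with the Pvt1 guide and 13.4 ± 2.61 CPM with the control guide, and its neighbour Myc at 48.6 ± 5.16 and 30.4 ± 4.55 CPM (SD, n = 3 each). All 10 fibroblast markers examined were in the table. Their summed levels were 37018 to 38124 CPM with the Pvt1 guide and 38244 to 38811 CPM with the control guide. Fn1 alone averaged 21016 CPM over the 6 libraries. All 12 macrophage markers were in the table as well, at 98.8 to 326 CPM and 105 to 210 CPM. Of 5 epithelial markers 4 were listed, at 54.2 to 99.0 CPM and 74.7 to 91.5 CPM. Of 5 endothelial markers 4 were listed, at 49.6 to 72.9 CPM and 59.2 to 69.0 CPM. Libraries with equal replicate numbers resembled each other far more than libraries of 1 guide did, so a fit with replicate number as a block (the blocked fit) stands beside the fit without it where it bears on a gene. A change was called at an adjusted p under 0.05 over all 14440 genes. By that rule Pvt1 and Myc were called in the blocked fit (limma adjusted p = 0.000140 and 0.000549) and not without the block (limma adjusted p = 1.0 for both).

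No subunit gene of any of the 3 polymerases was called between the guides. Of the 28, 19 lay higher with the Pvt1 guide and 9 lower, with a median log2 fold change of 0.02, against −0.00 over all genes tested, of which 49.7% lay above 0. The count called was 0 of 28 by limma, where 0 of 14440 genes (0.0%) were called, and 0 of 28 in the blocked fit, where 5 genes (0.0346%) were called. At an unadjusted p under 0.05, limma without the block had 0 of 28 subunits, beside 50 of all genes (0.346%). Also run without the block, edgeR and DESeq2 had 0 of 28 as well, beside 49 and 46 of all genes. The blocked limma fit had 1 subunit (3.57%), Polr1a, beside 6.68% of all genes. That subunit lay higher, as did 3.32% of all genes at that p, while 0 subunits and 3.37% of all genes lay lower. These RNAs are from whole cultures, so a difference in RNA per cell and one in the kinds of cells present cannot be told apart.

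The differences were small in size as well. Of the 28 log2 fold changes, 26 were within 0.1 of 0. In limma without the block, the 95% interval of each of the 28, taken singly, lay within a 1.5-fold difference either way, and that of 22 lay within a 1.25-fold difference. In the blocked fit all 28 intervals lay within a 1.25-fold difference. The standard errors were 0.0528 to 0.146 without the block and 0.0345 to 0.0946 with it.

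**Figure D1:**
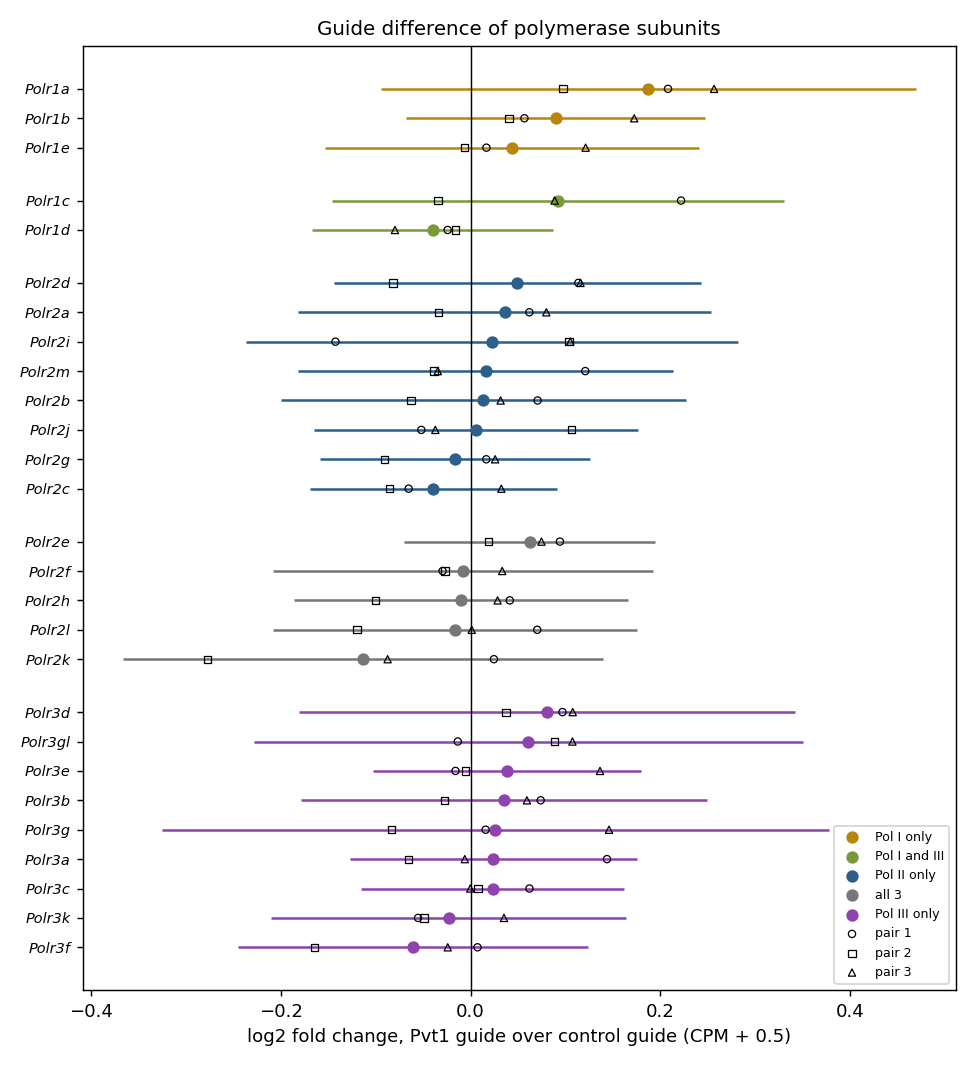
Log2 fold change on the log2(CPM + 0.5) scale, Pvt1 guide over control guide, of 27 subunit genes. Filled circles are limma estimates without the block with 95% intervals, coloured by the polymerase that holds the subunit, and open symbols are the 3 pairs of libraries with equal replicate number. All intervals cross 0, and Polr1a, at 0.19, lies farthest from 0.

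Among the subunits found only in Pol I, the symbol rule takes in Polr1a, Polr1b and Polr1e. All 3 lay higher with the Pvt1 guide, with a median log2 fold change of 0.09 and medians of 0.06, 0.04 and 0.17 within pairs 1, 2 and 3. Polr1a encodes the largest subunit, which carries part of the active site. It lies at chr6:71909053-71984935 on the plus strand (mm10, GENCODE M21). Its level was 58.1, 61.6 and 74.0 CPM with the Pvt1 guide and 50.2, 57.6 and 61.9 CPM with the control guide, in replicate order. The groups overlapped, and the Pvt1 guide library was the higher one in each of the 3 pairs, at 1.16, 1.07 and 1.2 times its partner. The means were 64.6 ± 8.36 and 56.6 ± 5.89 CPM (SD, n = 3 each), a log2 fold change of 0.19 (SE 0.117, 95% interval −0.09 to 0.47, limma adjusted p = 1.0). In the blocked fit the standard error was 0.0404 and the interval 0.10 to 0.28, and Polr1a ranked 18 of 14440 genes by p, but it was not called (limma adjusted p = 0.464). With replicate 2 left out of the blocked fit, which leaves 2 pairs, it rose by 0.23 (limma adjusted p = 0.000680), where 160 of all genes (1.11%) were called. Without replicate 1 or 3 in that fit it was not called (limma adjusted p = 0.351 and 0.939). A log2 fold change at least as high as that of Polr1a was found in 2.89% of all genes tested.

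Polr1b encodes the next-largest Pol I subunit, which completes the active site. It stood at 16.4, 16.2 and 17.5 CPM with the Pvt1 guide and at 15.8, 15.7 and 15.5 CPM with the control guide. It was the single subunit of the 28 (3.57%) whose groups did not overlap, a pattern seen in 3.61% of all genes tested. Its log2 fold change was 0.09 (SE 0.0655, 95% interval −0.07 to 0.25, limma adjusted p = 1.0, and 0.806 in the blocked fit). Polr1e, or PAF53, which helps bring Pol I to its promoter, had a log2 fold change of 0.04 (SE 0.0819). The other Pol I subunits, listed under older symbols, were not of one direction. Cd3eap, or PAF49, which pairs with PAF53, stood at 24.6 and 23.0 CPM with the Pvt1 and the control guide (log2 fold change 0.10), Twistnb, of the stalk, at 15.1 and 15.7 CPM (−0.05), and Znrd1, the small subunit that serves RNA cleavage, at 9.24 and 9.64 CPM (−0.06). With these 3 added, 4 of 6 Pol I subunits lay higher and 2 lower, with a median of 0.07, and 0 were called in either fit.

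The promoter of Polr1a is shown beside those of Polr2a, Polr3c, Polr3g and Polr3gl, as examples that do or do not hold the letters of known promoter motifs. Each line gives the 250 bases before the annotated start of transcription, 5′ to 3′, from RefSeq, with capitals marking a match to one of 3 motifs on either strand: the E-box CACGTG, the TATA box TATAAA, and the ETS motif CCGGAAG, read as CTTCCGG on the other strand.
Polr1a, GRCm38.p6 chr6:71908803-71909052, plus strand: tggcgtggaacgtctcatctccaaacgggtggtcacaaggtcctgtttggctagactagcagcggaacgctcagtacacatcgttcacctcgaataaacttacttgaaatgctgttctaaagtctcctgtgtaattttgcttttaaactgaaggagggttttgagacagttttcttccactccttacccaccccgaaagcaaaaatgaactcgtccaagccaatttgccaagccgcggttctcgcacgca
Polr2a, GRCm38.p6 chr11:69758634-69758883, minus strand: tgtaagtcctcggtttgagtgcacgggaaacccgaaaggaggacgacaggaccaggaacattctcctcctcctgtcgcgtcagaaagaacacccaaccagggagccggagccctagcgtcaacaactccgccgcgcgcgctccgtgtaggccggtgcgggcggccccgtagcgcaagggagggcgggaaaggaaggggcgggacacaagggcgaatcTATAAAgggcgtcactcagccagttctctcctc
Polr3c, GRCm38.p6 chr3:96727440-96727689, minus strand: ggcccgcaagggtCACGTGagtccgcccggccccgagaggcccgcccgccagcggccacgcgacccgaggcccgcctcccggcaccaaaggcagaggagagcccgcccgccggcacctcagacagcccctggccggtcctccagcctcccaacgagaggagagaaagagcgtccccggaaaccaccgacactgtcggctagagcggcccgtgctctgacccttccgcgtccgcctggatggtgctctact
Polr3g, GRCm38.p6 chr13:81711014-81711263, minus strand: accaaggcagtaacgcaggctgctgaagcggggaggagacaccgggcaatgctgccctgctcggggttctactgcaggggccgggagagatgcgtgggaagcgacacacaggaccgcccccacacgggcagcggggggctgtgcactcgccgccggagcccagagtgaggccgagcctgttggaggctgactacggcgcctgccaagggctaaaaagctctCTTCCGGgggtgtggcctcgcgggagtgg
Polr3gl, GRCm38.p6 chr3:96594182-96594431, minus strand: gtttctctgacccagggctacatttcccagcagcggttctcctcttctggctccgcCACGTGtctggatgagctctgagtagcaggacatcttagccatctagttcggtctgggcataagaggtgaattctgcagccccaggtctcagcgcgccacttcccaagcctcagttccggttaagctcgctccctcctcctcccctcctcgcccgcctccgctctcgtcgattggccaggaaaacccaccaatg
The window searched ran from 250 bases before to 50 bases after the start. RefSeq windows were found for 22 of the 28 genes, 24 windows in all, and those without one include Polr2d, Polr2g, Polr2k, Polr3a and Polr3d. An E-box was present in 4 of 24 windows (16.7%), those of Polr2h, Polr3c, Polr3e and Polr3gl, against 7.15% of all 32851 windows. These 4 genes had log2 fold changes of −0.01, 0.02, 0.04 and 0.06, within the range of the other subunits. The ETS motif was present in 7 windows (29.2%, against 8.86% of all), those of Polr1c, Polr1e, Polr2c, Polr2f, Polr2j, Polr3b and Polr3g, and the TATA box in those of Polr2a and Polr2c (8.33%, against 13.6%). No match overlapped another. A match is only a match of letters and does not show that a factor binds there.

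Polr1c and Polr1d, shared by Pol I and Pol III, form the platform on which the large subunits assemble, and their fold changes had opposite signs, with neither called. Polr1c stood at 32.5, 34.8 and 34.8 CPM with the Pvt1 guide and at 27.8, 35.7 and 32.7 CPM with the control guide. It was higher in pairs 1 and 3 and lower in pair 2, with a log2 fold change of 0.09 (SE 0.0990). Polr1d stood at 76.9, 81.2 and 78.2 CPM with the Pvt1 guide and at 78.2, 82.1 and 82.7 CPM with the control guide. It was the single subunit (3.57%) that was lower in all 3 pairs, as 14.4% of all genes were, with a log2 fold change of −0.04 (SE 0.0528). Of its 50-base runs 10.8% are also in transcripts of Gm12751, so reads of both genes cannot be fully told apart.

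The 8 subunits held by Pol II alone lay closest together, with log2 fold changes from −0.04 to 0.05, a median of 0.01, and 6 higher and 2 lower. Polr2a encodes the largest subunit, whose repeated tail is phosphorylated as transcription proceeds. It stood at 322, 296 and 358 CPM with the Pvt1 guide and at 308, 303 and 339 CPM with the control guide, with overlapping groups and a log2 fold change of 0.04 (SE 0.0906, 95% interval −0.18 to 0.25). Polr2b, the next-largest subunit, stood at 78.5, 86.7 and 87.8 CPM with the Pvt1 guide and at 74.7, 90.6 and 85.8 CPM with the control guide (0.01, SE 0.0887). Both were higher in pairs 1 and 3 and lower in pair 2. Polr2c, the platform subunit RPB3, stood at 36.3, 36.4 and 38.5 CPM with the Pvt1 guide and at 38.0, 38.6 and 37.6 CPM with the control guide (−0.04, SE 0.0540). Polr2d, of the stalk, stood at 19.0, 17.3 and 17.4 CPM with the Pvt1 guide and at 17.5, 18.3 and 15.98 CPM with the control guide (0.05, SE 0.0804). The groups overlapped for each of these 4 genes. The others were the platform subunit Polr2j (0.01), the stalk subunit Polr2g (−0.02), Polr2i, which serves accuracy and RNA cleavage (0.02), and Polr2m, or Gdown1, which binds a part of Pol II (0.02).

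Of the 5 subunits built into all 3 enzymes, 1 lay higher and 4 lower, with a median log2 fold change of −0.01. Polr2e (RPB5) was the higher one, at 48.7, 50.2 and 50.0 CPM with the Pvt1 guide and 45.6, 49.6 and 47.5 CPM with the control guide, higher in all 3 pairs but with overlapping groups (0.06, SE 0.0550). Polr2k (RPB12) had the lowest fold change of the 28. It stood at 11.02, 9.46 and 9.21 CPM with the Pvt1 guide and at 10.8, 11.6 and 9.82 CPM with the control guide (−0.11, SE 0.105, limma adjusted p = 1.0), lower in pairs 2 and 3 only. Of its 50-base runs 21.6% are in transcripts of other genes. Polr2f (RPB6, −0.01), Polr2h (RPB8, −0.01) and Polr2l (RPB10, −0.02) lay nearer 0. Polr2f and Polr2k share chromosome 15 with Pvt1 and Myc, at 16.8 and 25.9 Mb from Pvt1.

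The 10 subunits held by Pol III alone had a median log2 fold change of 0.03, with 8 higher and 2 lower. Polr3a, the largest subunit, stood at 37.7, 36.5 and 36.3 CPM with the Pvt1 guide and at 34.1, 38.2 and 36.5 CPM with the control guide (0.02, SE 0.0628), higher in pair 1 and lower in pairs 2 and 3. Polr3b, the next-largest, stood at 27.0, 30.4 and 29.7 CPM with the Pvt1 guide and at 25.7, 31.0 and 28.5 CPM with the control guide (0.04, SE 0.0891). Both genes had overlapping groups. Polr3d (RPC53), which pairs with Polr3e and serves termination and reinitiation, had the highest fold change of the 10. Its level was 47.9, 57.9 and 53.2 CPM with the Pvt1 guide and 44.8, 56.4 and 49.3 CPM with the control guide. It was higher in all 3 pairs, at 1.07, 1.03 and 1.08 times its partner, while the groups overlapped (0.08, SE 0.108, limma adjusted p = 1.0; SE 0.0379 and adjusted p = 0.738 in the blocked fit). Polr3f (RPC39), of the trimer that takes part in initiation, had the lowest, at 19.96, 19.4 and 18.5 CPM with the Pvt1 guide and 19.9, 21.8 and 18.9 CPM with the control guide (−0.06, SE 0.0768). Polr3c of the same trimer (0.02), Polr3e (0.04) and Polr3k, which serves RNA cleavage (−0.02), lay between, as did the stalk subunit Crcp (0.00), listed under its own symbol.

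In all, 4 of the 28 subunits (14.3%) were higher in all 3 pairs, Polr1a, Polr1b, Polr2e and Polr3d, and 14.4% of all genes were. The class medians were 0.09 for Pol I, 0.03 for Polr1c and Polr1d, 0.01 for Pol II, −0.01 for the subunits of all 3 enzymes and 0.03 for Pol III. The medians within pairs ranged from 0.04 to 0.17 for the 3 Pol I subunits of the symbol rule, from 0.02 to 0.08 for the 6 with those under older symbols, from −0.05 to 0.04 for Pol II and from −0.02 to 0.06 for Pol III. The differences between these classes were not tested.

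**Figure D2:**
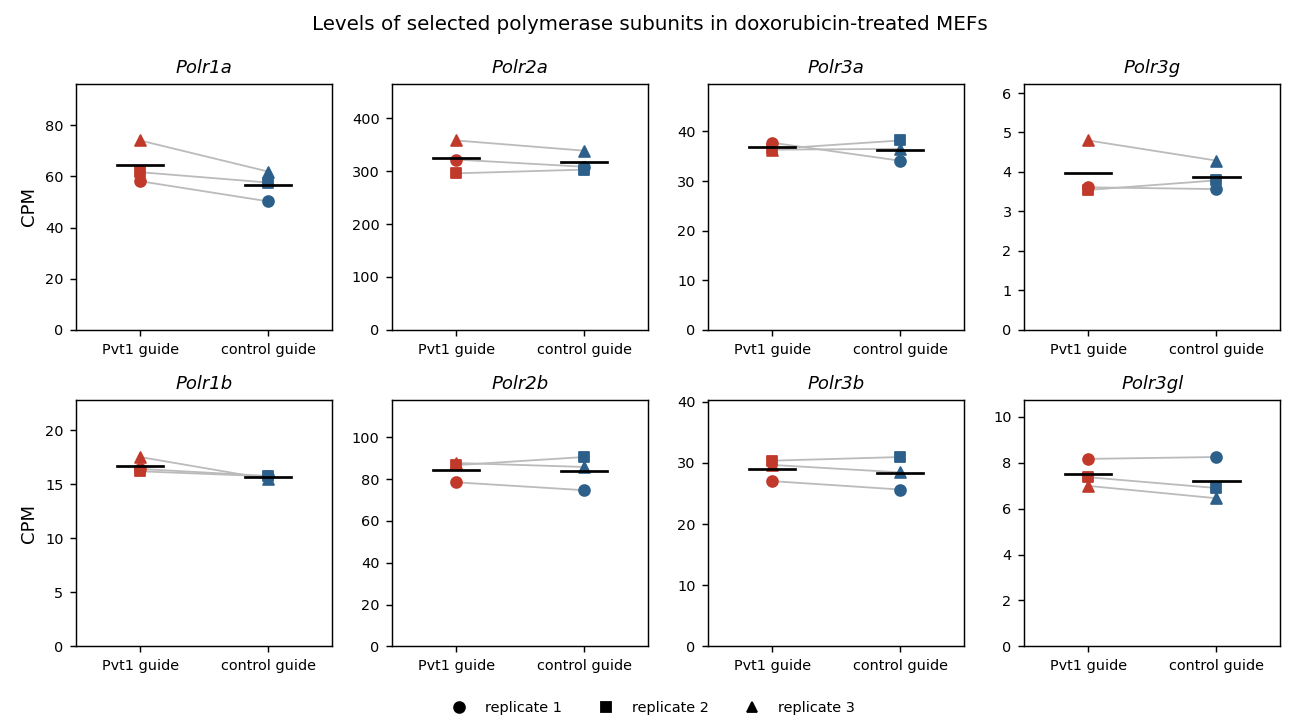
CPM in each of the 6 libraries for the largest and next-largest subunit of each polymerase and for Polr3g and Polr3gl. Symbols are replicate numbers, grey lines join libraries of equal number, and black bars are means of 3. For Polr1a and Polr1b all 3 lines fall towards the control guide. For Polr2a, Polr2b, Polr3a, Polr3b, Polr3g and Polr3gl they do not all run one way.

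Polr3g and Polr3gl encode alternative forms of the RPC32 subunit, so that a Pol III enzyme holds one or the other. The Polr3g form is known from human cells as the one rich in stem and tumour cells. Polr3g stood at 3.61, 3.55 and 4.80 CPM with the Pvt1 guide and at 3.57, 3.79 and 4.29 CPM with the control guide (log2 fold change 0.03, SE 0.146). Polr3gl stood at 8.16, 7.36 and 6.98 CPM with the Pvt1 guide and at 8.24, 6.89 and 6.45 CPM with the control guide (0.06, SE 0.120). Per kb of exons, Polr3g made up 15.2%, 16.4% and 21.8% of the level summed over both with the Pvt1 guide and 14.9%, 18.2% and 21.3% with the control guide. The means of 17.8% ± 3.52 and 18.1% ± 3.16 (SD, n = 3 each) differed by less than either SD (two-sided exact permutation test, p = 1.0, where 3 against 3 cannot go below 0.10). This test ignores the pairs, and both SDs include a rise with replicate number that the guides share. Within pairs, the share was higher with the Pvt1 guide in pairs 1 and 3 and lower in pair 2. No 50-base run of Polr3g is in transcripts of Polr3gl or of any other gene. Of the runs of Polr3gl, 3.41% are in transcripts of other genes, and 3.57% of its exonic bases lie opposite exons of Gm16253.

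Levels of different subunits were compared per kb of all annotated exons, a length that overstates the transcript where a gene has long rare isoforms. The 4 highest on this scale, Polr2g, Polr2a, Polr2l and Polr2m, are held by Pol II, Polr2l by Pol I and Pol III as well. Polr2g had 55.5 CPM per kb with the Pvt1 guide and 56.2 with the control guide, and Polr2a 46.0 and 44.8. The largest subunits of Pol III and Pol I were much lower, with 6.32 and 6.22 CPM per kb for Polr3a and 5.44 and 4.76 for Polr1a. Polr3g was the lowest of the 28, at 1.01 and 0.986 CPM per kb. The ratio of Polr1a to Polr2a per kb was 0.107, 0.124 and 0.123 with the Pvt1 guide and 0.0970, 0.113 and 0.109 with the control guide, overlapping but higher in each of the 3 pairs. This ratio was chosen after its values were seen and has no test.

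**Figure D3:**
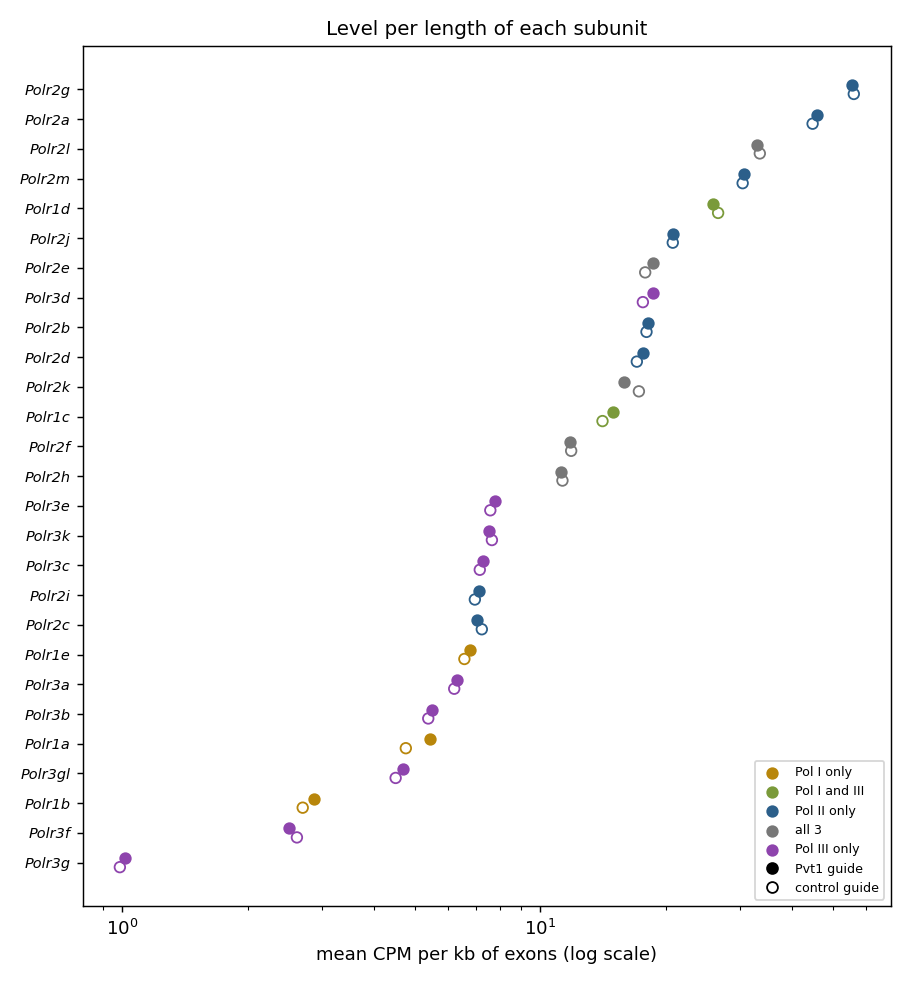
Mean level of 27 subunits in CPM per kb of annotated exons, on a log axis, for the Pvt1 guide (filled) and the control guide (open), coloured by the polymerase that holds it. Genes are ordered by level, from Polr2g at 55.5 to Polr3g at 1.01 CPM per kb with the Pvt1 guide.

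Of the log2 sum of squares added over the 28 subunits, replicate number held 72.9%, the guide 11.6% and the rest 15.6%, against 86.9%, 4.59% and 8.50% over all genes tested. The shares are not divided by degrees of freedom, and genes with large differences weigh most in them. For the guide these were Polr1a (log2 fold change 0.19) and Polr2k (−0.11). The contrast with all genes was not tested. The guide held more than replicate number for Polr1b (62.6% and 10.8%) and Polr2c (31.0% and 16.1%). For Polr2c, Polr3a and Polr3e the rest was the main share, at 52.9%, 73.8% and 57.8%. For Polr1a the shares were 63.8%, 32.2% and 4.07%. Levels differed between replicate numbers for 9 of 28 subunits (32.1%) in a limma F-test with guide as a term, against 48.6% of all genes tested. Polr1a had means over both guides of 54.2, 59.6 and 67.9 CPM in replicates 1, 2 and 3 (limma adjusted p = 0.000725), Polr3d 46.3, 57.2 and 51.3 CPM (0.000769), and Polr2a 315, 299 and 348 CPM (0.00327). The others were Polr2b (limma adjusted p = 0.00463), Polr2m (0.0197), Polr3b (0.0217), Polr2f (0.0260), Polr1c (0.0296) and Polr2l (0.0387). Of the 9, 7 were lowest in replicate 1, and Polr2a and Polr2f were lowest in replicate 2. Among all genes tested, 3134 of the 7022 called were lowest in replicate 1, a smaller share, and the contrast was not tested. Macrophage markers summed to 210 to 326 CPM in replicate 1 and to between 98.8 and 126 CPM in the others, and 8 markers of proliferating cells to 63.8 and 68.5 CPM in replicate 2, 73.5 to 79.5 CPM in replicate 1 and 76.3 to 76.9 CPM in replicate 3. Their part in these differences was not tested.

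**Figure D4:**
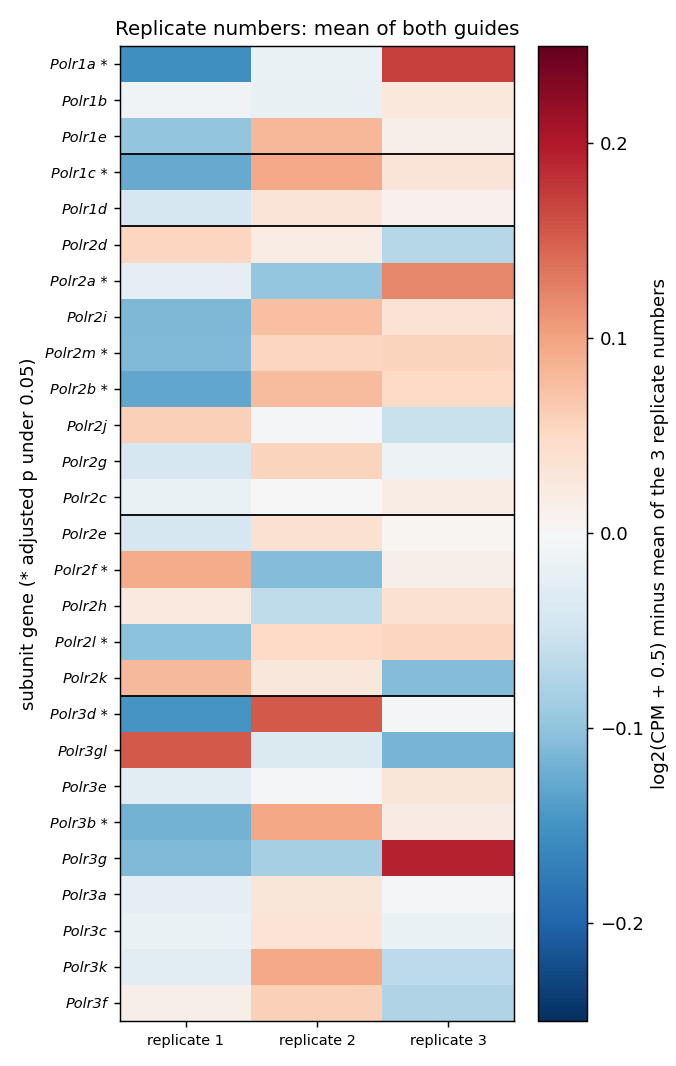
Mean over both guides in each replicate number, as log2(CPM + 0.5) minus the mean of the 3 numbers, for 27 subunits, with lines between the classes of subunit. Asterisks mark the 9 genes called in the limma F-test, of which 7 are lowest in replicate 1, beside 3134 of the 7022 genes called among all tested.

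Genes that serve the polymerases gave no call either. These lists, with the subunits under other symbols and the mitochondrial enzyme, hold 81 genes, all tested, of which 51 lay higher and 30 lower (median log2 fold change 0.02), and 0 were called in either fit. Of 10 Pol I factors, 6 lay higher and 4 lower. Taf1c, of the complex that brings Pol I to ribosomal DNA, stood at 22.8, 24.3 and 22.0 CPM with the Pvt1 guide and at 20.7, 20.9 and 19.6 CPM with the control guide, without overlap (0.17, SE 0.0674, limma adjusted p = 1.0, and 0.603 in the blocked fit). Taf1a of the same complex had a log2 fold change of 0.10. Of 16 Pol III factors, 9 lay higher and 7 lower, led by Snapc4 (33.3 and 30.3 CPM with the Pvt1 and the control guide, 0.13) and Snapc3 (0.10), both of the complex for small nuclear RNA promoters. Of 18 general Pol II factors, 12 lay higher and 6 lower, led by Ercc2, a helicase of the factor TFIIH (22.0 and 19.7 CPM, 0.15), and Gtf2h4 of the same factor (0.09). Of 18 Pol II elongation and tail factors, 12 lay higher and 6 lower, led by Ccnt2 (0.10), a cyclin of the elongation kinase P-TEFb, and the elongation factor Ell (0.06). Of 10 assembly factors, 8 lay higher and 2 lower, led by the GTPase Gpn2 (0.12) and the ATPase Ruvbl2 (0.09). At an unadjusted p under 0.05 in the blocked fit stood 4 of the 81 (4.94%), Taf1c, Ercc2, Snapc4 and Ruvbl2, all higher, as 3.32% of all genes were. The groups did not overlap for 3 of the 81 (3.70%), against 3.61% of all genes. Of the 81, 19 (23.5%) were higher in all 3 pairs and 7 lower in all 3, where 14.4% of all genes were higher and 14.4% lower. These counts were not tested.

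In the authors' deposited table for the same comparison, the lowest false discovery rate over all genes was 0.224. So neither the 28 subunits nor any other gene had one under 0.05. Of the 28 subunits, 0 had a p under 0.05 there. Polr1a had the smallest p of the 28 in the authors' deposited table, with a log2 fold change of 0.19 and a false discovery rate of 1.0. Exons of 10 of the 28 genes lie opposite exons of another gene, among them Polr2i with Tbcb (26.8% of its exonic bases), Polr2c with Dok4 (18.1%) and Polr1a with Gm26628 (1.56%). The kit kept strand, but whether the counting used it is not given in the sources used here, so such reads may be shared. Of the 28, 8 had at least 10% of their 50-base runs in transcripts of other genes, and none shared a run with another subunit.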

How the data were processed

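RNA of 6 doxorubicin-treated libraries was analysed. The series has 12 samples in 4 groups, and the 6 untreated ones were not analysed here. The submitters' processing notes name the build mm10 and edgeR 3.22.3, HTSeq 0.6.1, StringTie 1.2.4 and TopHat2 2.0.14, without their roles. Per the file headers the deposited values are CPM from edgeR. The authors' log2 fold changes and p-values were deposited in the same table per the file headers, with the test not named. Its 6 pseudo-count columns were not used. Of 16427 entries 2 name no gene (ambiguous reads, 0.543% to 1.58% of a library, and reads outside genes, 8.06% to 8.94%) and were removed.

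Log2(CPM + 0.5) values were fitted without a block in limma 3.58.1 (empirical Bayes, robust, with a trend) for genes at 0.5 CPM or more in no fewer than 3 libraries, Benjamini-Hochberg adjusted (threshold 0.05, 4 residual degrees of freedom). A fold change on this scale understates that of low genes. Deviations from the group means correlated across genes at 0.869, 0.739 and 0.817 for equal replicate numbers and at most at 0.203 otherwise. Subtracting the group means lowers the other values once those for equal numbers are high, so this gap is partly fixed. By the high values for equal numbers, the numbers pair the libraries. A fit with replicate number as a block (2 degrees) was run beside the one without it. Each CPM was divided by the worth of 1 read. All values (100%) came out whole within 0.01 reads. On these reads, without the block, edgeR 4.0.16 called 0 genes and DESeq2 1.42.0 called 1. Calls were tested on simulated data whose planted guide changes were larger than that of any subunit and whose replicate effect covered few genes. That simulation does not show whether changes as small as those of the subunits would be called.

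The members and lists were chosen with earlier results of these data known. Counts and medians cover all 28 members, of which 1 is not reported here by itself. Named genes are the other members, with every library's value for the largest and next-largest subunits, Polr3g, Polr3gl and the 2 of each class with the smallest p, and the 2 genes of each factor list with the smallest p. Positions, exon lengths and shared 50-base runs come from GENCODE M21 (mm10), promoters from RefSeq GRCm38.p6. Classes of subunits follow textbook knowledge. Alternatives were other pseudocounts, filters and normalizations, edgeR, DESeq2, the block, and each library or pair left out.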

Additional observations from a re-analysis of the deposited data

How the results depend on the processing

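All alternatives were listed in advance, with earlier results of these data known. The count of 0 genes called over all genes became 1 with DESeq2 and 5 with the replicate block, and 8, 160 and 9 in the blocked fit without replicate 1, 2 and 3; it was 0 under the other alternatives. The count of 0 subunits called was 0 to 1 there, the 1 being Polr1a without replicate 2, and 0 under every other alternative. That fit has 1 residual degree of freedom. The block changed no other call of a subunit. Polr1a lay between 0.09 and 0.26 over its 18 alternatives, with adjusted p of 0.000680 to 1.0. The other 27 subunits had no call in any alternative. Of 503 values, 40 changed sign, over 17 subunits, and each of these came from leaving out libraries. Class medians moved by less than the spread of the 3 pairs in every alternative. The number of subunits that differed between replicate numbers was 9 with a pseudocount of 1, a mean of at least 5 CPM or median centring. The share of Polr3g taken from CPM without division by length differed by −0.57 percentage points, against −0.35 per kb (exact permutation test, p = 1.0 for both). Polr3g, at under 5 CPM, is the least precisely measured subunit.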

Other observations

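The mitochondrial RNA polymerase, a single-subunit enzyme not built from Polr1, Polr2 or Polr3 subunits, transcribes the mitochondrial genome. Its gene Polrmt stood at 65.7 and 64.0 CPM with the Pvt1 and the control guide (log2 fold change 0.04, SE 0.0542). Tfam, the DNA-binding activator of that genome, stood at 18.9 and 19.5 CPM (−0.04), Tfb2m, which opens its promoters, at 18.7 and 19.1 CPM (−0.03), Mterf3 at 18.4 and 19.2 CPM (−0.06), and the elongation factor Tefm at 6.20 and 6.07 CPM (0.03). Of the 5 genes 2 lay higher and 3 lower, and limma called 0 with or without the block (0 at an unadjusted p under 0.05 in either).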
